A study of Mus musculus with 7 samples.

Results

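Gadd45g and 9 other rapidly induced stress genes were followed in the livers of mice lacking C3ar1, the receptor of the complement fragment C3a. The members were Gadd45g, Gadd45a, Gadd45b, Fos, Jun, Junb, Egr1, Ier2, Ier3 and Atf3. They were taken as every probe whose annotated symbol is one of these names. Each had exactly 1 probe, so 10 genes of 16462 measured gene symbols are described. The set was chosen from earlier results of the same arrays, in which Gadd45g led the immediate early genes in the contrast of knockout with wild type. Differences between the genotypes are therefore given below as a description, and no test of them supports the choice.

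The study profiled total RNA of 7 livers from mice kept on a chow diet, 3 with the genotype C3ar1-/- and 4 wild-type littermates. Each liver was hybridised on a 2-colour array against 1 common reference, a pool of RNA from 6 wild-type livers. The titles number the wild-type livers 1 to 4 and the knockout livers 2 to 4. The sources used here do not give sex, age, strain, time of day, feeding state before killing or the deleted part of the gene. The labels describe single mice, so the spread below is between animals.

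Values are deposited log ratios, most likely of mouse over pool, and 0 means the level of the pool. How the titles order pool and mouse, with the dye of each channel, makes this direction likely without settling it, and the base of the logarithm is not stated. Base 10 was assumed for every fold. Under base 2 the largest difference among the members, that of Gadd45g, would be 1.28-fold instead of 2.28-fold. A log ratio carries no absolute level, so whether a transcript was abundant or near background in liver cannot be read from it. For the same reason the labelled tissue could be checked only relative to the pool. The mean log ratio over 12 measured hepatocyte markers, among them albumin and apolipoprotein genes, lay between -0.0424 and 0.0504 on the 7 arrays. In a whole liver, fewer cells of a type and less RNA per cell cannot be told apart.

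Over all 23574 probes the arrays were centred close to 0, with medians from -0.0008 to 0.0139. Knockout liver 2 had the widest spread over probes (SD 0.0975), against 0.0466 to 0.0676 on the other arrays. No pair of arrays held the same value in more than 0.119% of probes. The probe of C3ar1 itself did not mark the knockouts: knockout livers 2, 3 and 4 read 0.0042, 0.0337 and 0.0514, and the wild types -0.0296, -0.0318, 0.0225 and 0.0264. Whether it lies in the deleted part is not known here, so it does not check the labels. The number of arrays limits the precision.

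Immediate early genes are transcribed within minutes of a stimulus, without new protein synthesis, when kinases of the MAP kinase and cAMP pathways activate factors already bound at their promoters. Fos, Jun and Junb encode subunits of the AP-1 transcription factor, Egr1 a zinc finger factor, and Atf3 a stress-induced factor of the ATF/CREB family. Ier2 encodes a nuclear protein and Ier3 a regulator of survival signalling. The Gadd45 genes encode small acidic proteins that bind the kinase MAP3K4, PCNA and the CDK1 complex and are induced by DNA damage and other stress. In liver, such genes are known to respond to partial hepatectomy, feeding state, hormones and the handling of tissue.

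The promoters of the 3 Gadd45 genes and of Junb are shown because Gadd45g and Junb were the members whose genotypes did not overlap, and Gadd45a and Gadd45b are the paralogues of Gadd45g set beside it below. Sequences are from RefSeq on GRCm38.p6, from 250 bases before to 50 after the annotated start, in the direction of the gene. Capitals mark 3 motifs, each searched on both strands. TATAAA is the TATA box. CCAAT names its own box. TGACG is the core of the cAMP response element. Gadd45g lies at chr13:51846425-51846724 on the plus strand, Gadd45a at chr6:67037358-67037657 on the minus strand, Gadd45b at chr10:80929841-80930140 on the plus strand and Junb at chr8:84978699-84978998 on the minus strand.
Gadd45g: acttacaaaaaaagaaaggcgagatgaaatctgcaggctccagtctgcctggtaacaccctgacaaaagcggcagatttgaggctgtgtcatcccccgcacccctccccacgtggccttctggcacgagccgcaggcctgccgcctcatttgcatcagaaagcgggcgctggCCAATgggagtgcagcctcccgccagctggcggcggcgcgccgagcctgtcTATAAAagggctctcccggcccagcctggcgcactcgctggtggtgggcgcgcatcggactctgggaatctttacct
Gadd45a: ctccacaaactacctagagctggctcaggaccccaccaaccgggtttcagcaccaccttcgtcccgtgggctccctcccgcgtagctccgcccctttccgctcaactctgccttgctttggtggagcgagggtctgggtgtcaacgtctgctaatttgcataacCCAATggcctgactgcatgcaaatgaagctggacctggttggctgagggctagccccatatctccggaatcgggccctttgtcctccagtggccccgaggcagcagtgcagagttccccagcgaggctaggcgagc
Gadd45b: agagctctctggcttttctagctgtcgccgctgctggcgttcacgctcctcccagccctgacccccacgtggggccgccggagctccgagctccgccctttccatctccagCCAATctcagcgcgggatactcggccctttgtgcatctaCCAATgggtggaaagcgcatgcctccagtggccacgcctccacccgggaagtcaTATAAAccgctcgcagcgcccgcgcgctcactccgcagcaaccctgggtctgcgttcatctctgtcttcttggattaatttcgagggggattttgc
Junb: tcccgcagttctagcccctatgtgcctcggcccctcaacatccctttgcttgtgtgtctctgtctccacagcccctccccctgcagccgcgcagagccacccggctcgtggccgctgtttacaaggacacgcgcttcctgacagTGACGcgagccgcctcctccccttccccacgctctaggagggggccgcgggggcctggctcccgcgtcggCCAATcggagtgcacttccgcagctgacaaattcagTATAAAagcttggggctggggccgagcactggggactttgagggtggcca

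In Gadd45g the TATA box began 27 bases and the CCAAT box 78 bases before the start. Gadd45b held a TATA box 46 bases and CCAAT boxes 139 and 100 bases before it. Gadd45a held a CCAAT box at 86 bases and none of the other motifs searched. In Junb a TGACG core lay at 106 bases and a CCAAT box at 36 bases before the annotated start, and the TATA box began at base 1 after it. Of the 10 members 8 were found in the promoter table, and Egr1 and Ier2 were not. TATAAA was present in 4 of these 8 (Fos, Gadd45b, Gadd45g and Junb) and in 13.6% of all 32851 promoters of the same length. CCAAT was present in 7 of 8, all but Fos, and in 37.4% of all promoters. The core TGACG was present in Atf3, Fos and Junb and in 20.8% of all promoters. CCAAT and TGACG were added to the search after the sequences were seen, so nothing is read from their shares. The full element TGACGTCA (1.79% of all promoters), the AP-1 site TGACTCA (5.2%), the EGR site GCGTGGGCG (0.612%) and the CArG box bound by SRF (1.63%) were in 0 of the 8 windows. TGACG is contained in TGACGTCA, so these counts overlap. A match is a run of letters and not a measured binding site. Variant sites and bases outside these windows were not searched, so an absent match does not show that a promoter lacks such a site.

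Gadd45g differed most between the genotypes among the members. Its log ratio was 0.403, 0.190 and 0.101 in knockout livers 2, 3 and 4. Wild-type livers 1 to 4 had -0.174, 0.0249, -0.364 and 0.0064. All 3 knockouts lay above the pool and above all 4 wild types, of which livers 1 and 3 were well below the pool and livers 2 and 4 at its level. The means were 0.231 ± 0.156 (SD, n = 3) and -0.127 ± 0.182 (SD, n = 4). Their difference was 0.358 ± 0.107 (SE), or 2.28-fold with base 10 assumed. The gap between the lowest knockout and the highest wild type was 0.0758, small beside the range of 0.389 among the wild types alone. The highest value came from the array with the widest spread. Without that liver the difference was 0.272, and with all arrays scaled to the same spread it was 0.335. Over the arrays left out singly it ran from 0.272 to 0.423.

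Gadd45a had a lower mean in the knockouts, and Gadd45b had no steady direction. Gadd45a, the classical p53-induced member, read -0.382, -0.333 and -0.0198 in knockout livers 2, 3 and 4. The wild types read -0.147, -0.239, 0.113 and -0.112 in livers 1 to 4. Knockout livers 2 and 3 lay below all wild types and liver 4 fell among them, so the groups overlapped. The means were -0.245 ± 0.197 (SD, n = 3) and -0.0963 ± 0.149 (SD, n = 4). The difference was -0.149 ± 0.106 (SE), and ran from -0.261 when knockout liver 4 was left out to -0.0791 when wild-type liver 3 was. Gadd45b, which is induced by TGF-beta and in regenerating liver, read 0.0649, 0.243 and -0.0789 in knockout livers 2, 3 and 4. In the wild types it read 0.190, 0.0181, -0.0469 and -0.120. Both genotypes spanned the pool, over ranges of 0.322 for knockouts and 0.310 for wild types. The difference of 0.0660 ± 0.0907 (SE) turned to -0.0174 without knockout liver 3.

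**Figure D1:**
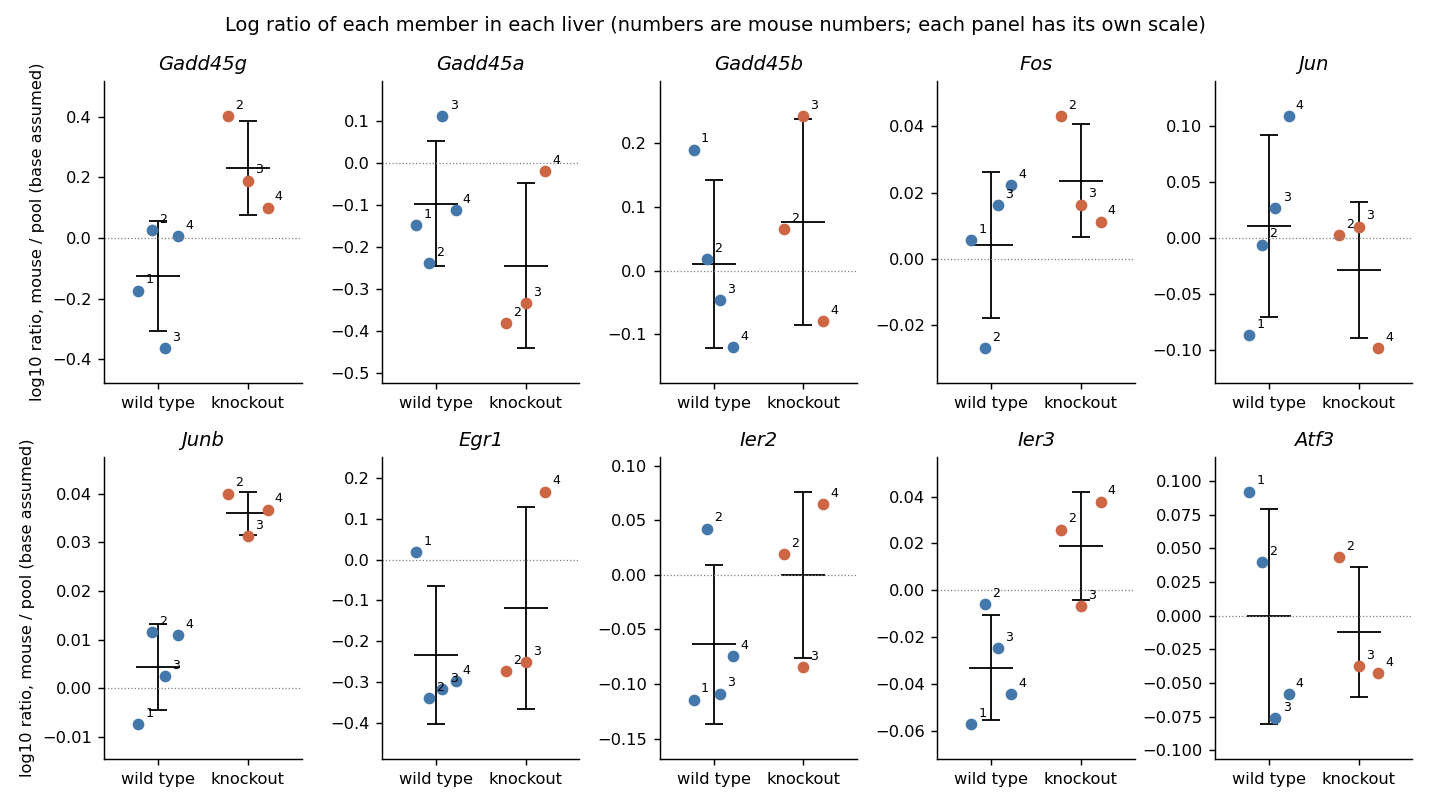
Log ratio to the wild-type pool (vertical axes, base 10 assumed) of each of the 10 members in 4 wild-type (blue) and 3 knockout (orange) livers, 1 point per mouse with its number. Bars are means with the SD over mice, each panel has its own scale, and only Gadd45g and Junb show no overlap between genotypes.

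Of the AP-1 genes, Junb was the other member without overlap, at a far smaller size. Knockout livers 2, 3 and 4 read 0.0400, 0.0312 and 0.0367 for Junb. Wild-type livers 1 to 4 read -0.0073, 0.0115, 0.0025 and 0.0110. Every knockout was above every wild type, and all 7 values lay within 0.0473 of each other. The difference of 0.0315 ± 0.0156 (SE) corresponds to 1.08-fold. It kept its sign in all 15 alternatives that retained the probe, though some of these cannot change a difference of means. It ran from 0.0261 after scaling the arrays to the same spread to 0.0339. Fos stayed within 0.0702 over all mice, from -0.0270 in wild-type liver 2 to 0.0432 in knockout liver 2. Its means were 0.0236 ± 0.0171 (SD, n = 3) in the knockouts and 0.0043 ± 0.0220 (SD, n = 4) in the wild types, and the groups overlapped. Jun read 0.0024, 0.0101 and -0.0984 in knockout livers 2, 3 and 4 and -0.0867, -0.0060, 0.0266 and 0.109 in the wild types. Its lowest values came from knockout liver 4 and wild-type liver 1, and its difference was -0.0393 ± 0.0478 (SE). Junb and Fos thus had higher and Jun a lower knockout mean.

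Egr1, a gene induced by growth factors, was high in 1 mouse of each genotype. It read 0.0193 in wild-type liver 1 and 0.167 in knockout liver 4. The other 3 wild types read -0.339, -0.317 and -0.298, and knockout livers 2 and 3 read -0.272 and -0.252. Thus 2 livers, 1 of each genotype, stood near or above the pool, and the other 5 lay together well below it. The means were -0.119 ± 0.248 (SD, n = 3) and -0.234 ± 0.169 (SD, n = 4), and the difference of 0.114 ± 0.127 (SE) turned to -0.0286 without knockout liver 4. In the same 2 livers Jun was lowest.

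Knockout liver 4 also stood apart in macrophage and Kupffer cell markers. Their mean log ratio over 12 measured genes was 0.118 there, against -0.0968 and -0.150 in the other knockouts and -0.233 to -0.0611 in the wild types. All 12 markers had a higher knockout mean with that liver, 5 of 12 without it and 9 of 12 without wild-type liver 3. Wild-type liver 1, where Egr1 was also high, read -0.105 for these markers. Endothelial markers had a higher knockout mean in 13 of 14 genes, with list means of 0.00241 to 0.0461 in the knockouts and -0.0347 to 0.0201 in the wild types. Stellate and fibroblast markers were higher in 9 of 11, with list means of -0.0243 to 0.0325 in the knockouts and -0.0791 to -0.0207 in the wild types. Neutrophil markers were higher in 6 of 9 genes, lymphocyte markers in 10 of 12, hepatocyte markers in 9 of 12, cholangiocyte markers in 3 of 7 and erythroid markers in 2 of 5. Knockout liver 4 had the highest list mean for neutrophil markers as well, at 0.0475 against -0.0469 to -0.0049 in the other livers. It was also highest for stellate and fibroblast markers, at 0.0325 against -0.0791 to -0.0144. Without that liver the endothelial count was 11 of 14, the stellate and fibroblast count 7 of 11 and the lymphocyte count 6 of 12. The lymphocyte count was 7 of 12 after median centring, and the erythroid count was 1 of 5 without knockout liver 2. The part of these cells in the values of the stress genes was not tested.

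Ier3 came close to separating the genotypes, and Ier2 did not. For Ier3, knockout livers 2, 3 and 4 read 0.0259, -0.0069 and 0.0379. Wild-type livers 1 to 4 read -0.0571, -0.0058, -0.0248 and -0.0443. All 4 wild types were below the pool, and the only overlap was knockout liver 3, which lay 0.0011 under wild-type liver 2. The difference of 0.0520 ± 0.0205 (SE) corresponds to 1.13-fold and ran from 0.0425 to 0.0649 with single arrays left out. For Ier2 the knockouts read 0.0189, -0.0843 and 0.0650, and the wild types -0.114, 0.0424, -0.109 and -0.0744. Knockout liver 3 was among the low wild types and wild-type liver 2 among the high knockouts. The difference was 0.0636 ± 0.0484 (SE).

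The genotypes overlapped fully in Atf3. It ranged from -0.0429 to 0.0433 in the knockouts and from -0.0759 to 0.0920 in the wild types. Its means were -0.0124 ± 0.0483 (SD, n = 3) and -0.0005 ± 0.0800 (SD, n = 4). The difference of -0.0119 ± 0.0453 (SE) changed sign in 5 of 16 alternatives, not all of them independent. Its 95% interval ran from -0.117 to 0.0934, which allows up to 1.31-fold lower or 1.24-fold higher in the knockouts.

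In all, 7 of the 10 members had a higher mean in the knockouts (Gadd45g, Gadd45b, Fos, Junb, Egr1, Ier2 and Ier3) and 3 a lower one (Gadd45a, Jun and Atf3). A higher knockout mean was found in 57% of all probes. If the ratios are instead pool over mouse, every sign turns: Gadd45g is then lower in the knockouts, and 3 of 10 members and 43% of all probes are higher. Under each of the 3 other normalizations the 10 directions were as given. The median difference was 0.0418 over the members and 0.00555 over all probes. The knockouts were higher without overlap in 2 of 10 members and in 2.71% of all probes. Since this contrast chose the members, nothing is read from these shares. In the limma fit over all probes, 0 of 10 members passed an adjusted p of 0.05, where 1 probe of 23574 did (0.00424%), that of A2ml1. At an unadjusted limma p under 0.05 there were 2 members, Gadd45g and Ier3, against 4.47% of all probes. The same contrast chose the members, so nothing is read from this share either. The members' limma adjusted p ranged from 0.884 to 0.962, and the count of called members was 0 in every alternative run, the ordinary test without pooled spread included. Against the pool, the wild-type mean was called by limma in 0 members and in 0 of all probes (0%), with 2 members and 546 probes at an unadjusted p under 0.05. The ordinary test called 0 as well. All arrays share the same pool, so these tests against it do not include the error of the pool itself.

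**Figure D2:**
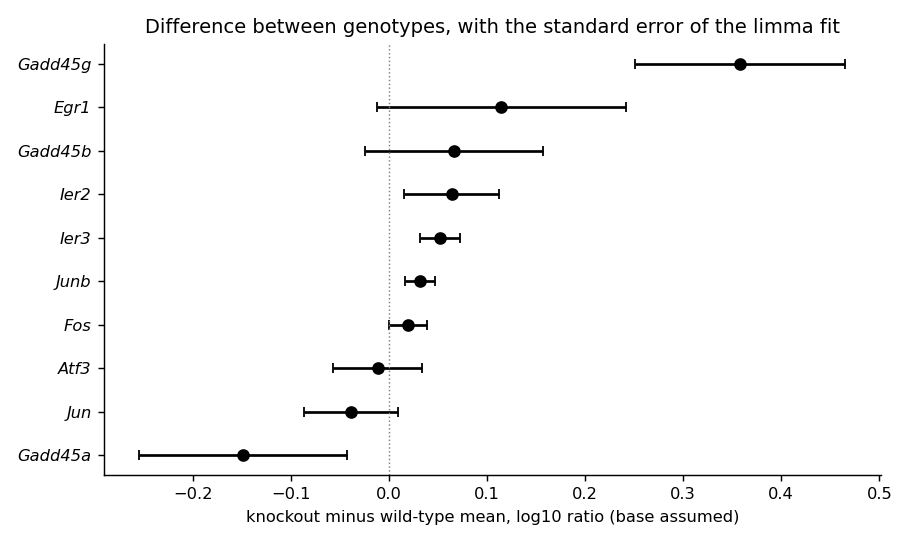
Knockout minus wild-type mean (horizontal axis, log10 ratio, base assumed) of each of the 10 members, with the standard error of the limma fit as bars (3 against 4 livers). Gadd45g stands at 0.358, 7 members lie above 0 and Gadd45a lies lowest at -0.149.

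The spread between mice of 1 genotype was not used by the rule that chose the members, and it differed widely among them. Pooled over both genotypes, the SD was 0.205 for Egr1, 0.172 for Gadd45g, 0.170 for Gadd45a and 0.145 for Gadd45b. These 4 lay at the 99.5th, 99.0th, 99.0th and 98.2nd percentile of all probes, whose median SD was 0.0360. Ier2, Jun and Atf3 had SDs of 0.0744, 0.0734 and 0.0691, between the 83.0th and 85.8th percentile. Ier3 (0.0228), Fos (0.0202) and Junb (0.0074) lay below the median, with Junb at the 0.424th percentile. The separation of Gadd45g thus came beside a large spread between mice, and that of Junb beside one of the smallest on the array. As no signal intensities were analysed here, a steady ratio near 0 does not show that a transcript was expressed and stable.

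**Figure D3:**
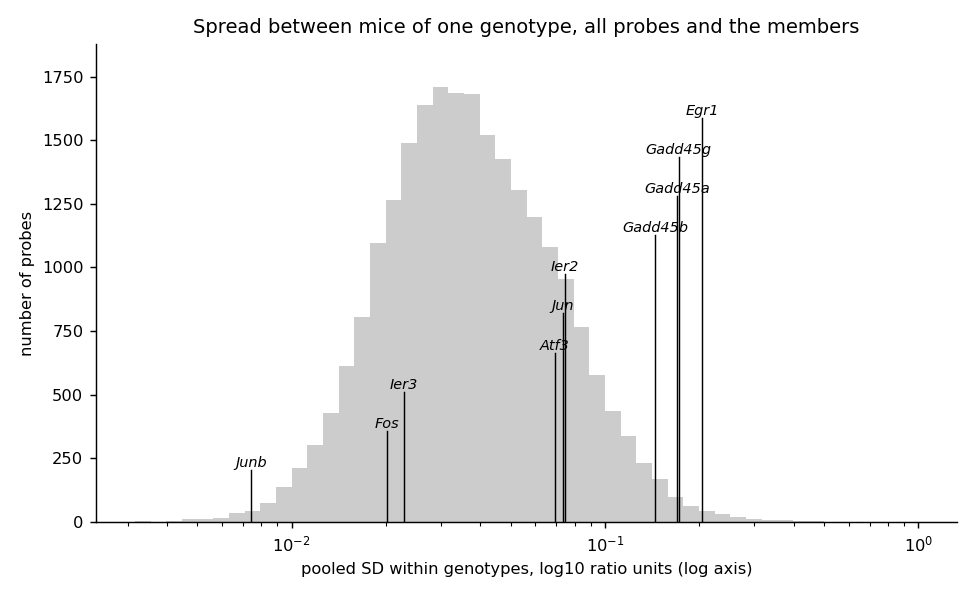
Number of probes (vertical axis) by pooled within-genotype SD of the log ratio (horizontal log axis, log10 ratio units) over 3 knockout and 4 wild-type livers, for all 23574 probes in grey. Lines mark the 10 members at arbitrary heights: Egr1, Gadd45g, Gadd45a and Gadd45b are at the upper end, and Junb at 0.0074 is at the lower end.

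The pattern of Gadd45g was compared with that of the 9 other members through deviations from each genotype's mean, since the difference between the genotypes chose the members and enters any pooled correlation. These correlations over the 7 livers are a description with no test. Gadd45a ran opposite to Gadd45g, at -0.825. The 2 livers farthest from the median of Gadd45g, wild-type liver 3 and knockout liver 2, were the highest and the lowest for Gadd45a. The pooled correlation with Gadd45a was -0.818 over all livers and -0.325 when those livers were left out. The pooled relation thus rests largely on them, and the within-genotype value without them was not computed.

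Junb deviated with Gadd45g at 0.589, Atf3 at 0.449, Ier2 at 0.407 and Jun at 0.382. Ier3, which had nearly separated the genotypes, gave only 0.0815 within them. Gadd45b and Fos were close to 0, at 0.0033 and 0.0031, and Egr1 was at -0.425. Within genotypes, 19 of all 45 pairs of members had a positive correlation and the median was -0.0485. The highest pair was Ier2 with Ier3, at 0.874, and the lowest was Gadd45g with Gadd45a. From mouse to mouse, the 10 genes thus showed no common direction in these values. Fos, Junb and Ier3 varied less than the median probe, and the share of positive pairs among other genes was not computed.

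**Figure D4:**
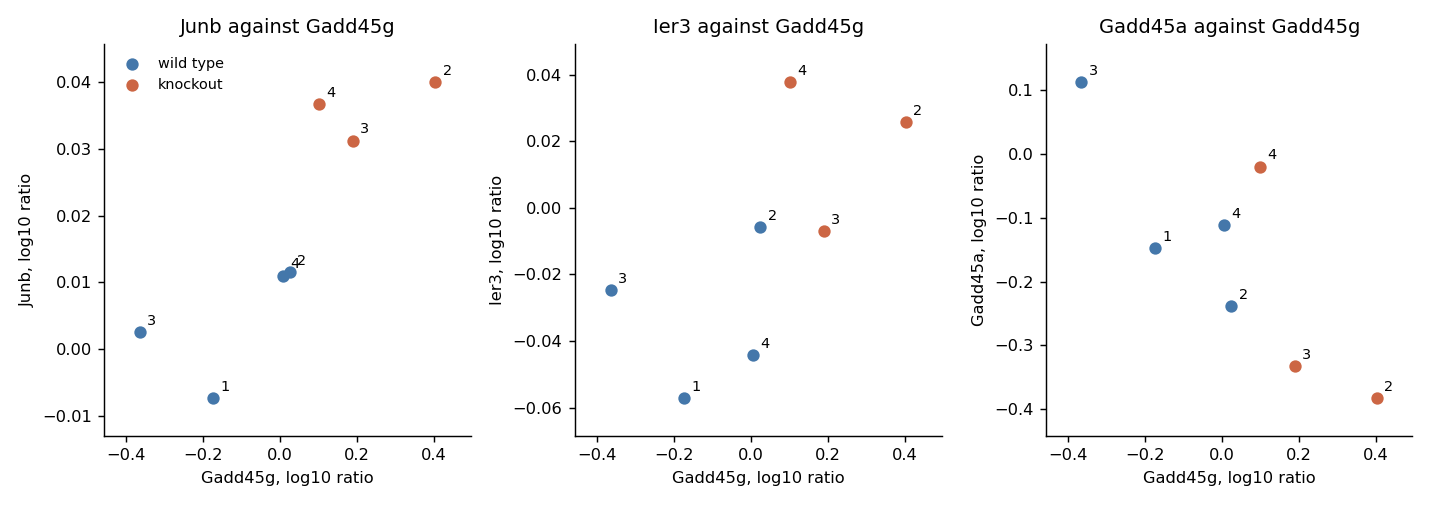
Junb, Ier3 and Gadd45a (vertical axes) against Gadd45g (horizontal axes), all as log10 ratios to the pool, in 4 wild-type (blue) and 3 knockout (orange) livers with their mouse numbers. Junb is higher in all knockouts. Gadd45a is highest (0.113) in wild-type liver 3, where Gadd45g is lowest, and lowest (-0.382) in knockout liver 2, where Gadd45g is highest. The livers between them show no steady fall.

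Genes outside the set were ranked by their Pearson correlation with Gadd45g over the 7 livers, among 9094 probes with 1 symbol whose SD was at least the median. The 10 highest were Prmt5, Cep295, Rps29, Cdkal1, Furin, Baiap2, Zfp764, Hnrnpa3, Mta1 and Proser2, with r from 0.950 to 0.980. Prmt5 encodes an arginine methyltransferase and Furin a proprotein convertase. The log ratios were 0.102, 0.0705 and 0.0468 in knockout livers 2, 3 and 4 for Prmt5, against 0.0052, 0.0504, -0.0430 and 0.0495 in the wild types, which overlap with them. The 5 lowest were Myoz2, Nr2f2, Rac1, Ugt2b5 and Pja1, from -0.973 to -0.936. In this ranking 29 probes exceeded 0.9 and 22 were under -0.9. This pooled ranking carries the difference between the genotypes. For deviations from each genotype's mean, the same 10 highest genes had r from 0.891 to 0.987. The same 5 lowest had r from -0.972 to -0.898. With 7 arrays and so many probes compared, these values describe likeness only, and Cep295, Baiap2 and Hnrnpa3 have further probes that were ranked apart.

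The wider immediate early programme was read from a list of 39 measured genes besides the members. A higher knockout mean was found in 33 of 39 and a lower one in 6, against 56.7% higher among all 16462 genes. This lean was not particular to the list, which was written with earlier results of these data known. Macrophage and Kupffer (100%), endothelial (92.9%), lymphocyte (83.3%) and stellate and fibroblast markers (81.8%) had shares near or above it. The other cell type lists ran from 40% (erythroid) to 75% (hepatocyte). With the ratios turned, 6 of 39 would be higher, against 43.3% of all genes, and the counts of the lists below would turn likewise. The median difference was 0.0300 against 0.00543 for all genes. No gene of the list passed in either direction by limma (0 at an unadjusted p under 0.05 as well), where 1 of 16462 genes, or 0.00607%, was called. The highest difference was that of Dusp1, a phosphatase that switches off MAP kinases, at 0.178 ± 0.152 (SE, limma adjusted p = 0.872). Dusp1 read 0.0935, 0.409 and -0.0685 in knockout livers 2, 3 and 4 and -0.124, 0.222, -0.328 and 0.0946 in the wild types, so its spread within genotypes was larger than its difference. The lowest was Myc, a growth-related transcription factor, at -0.0634 ± 0.0796 (SE, limma adjusted p = 0.882). With single mice left out the count of higher genes ran from 28, when knockout liver 3 was omitted, to 34.

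Other genes of the AP-1 and EGR families were higher in 15 of 17, with a median difference of 0.0146. Nab2, a corepressor of EGR factors, was highest at 0.0848 ± 0.0758 (SE), and Atf2, a partner of Jun, lowest at -0.0632 ± 0.0268 (both limma adjusted p = 0.872). Egr2, the paralogue of Egr1, was named after its values were seen. The knockouts read -0.101, -0.0824 and -0.113 for it, and the wild types -0.0262, -0.176, -0.303 and -0.106. Unlike Egr1 it was not high in knockout liver 4. The count of higher genes in this list was 12 without knockout liver 2. Genes that feed the MAP kinase and SRF input were higher in 13 of 21, with a median of 0.0094. Egfr, the epidermal growth factor receptor, was highest at 0.139 ± 0.0768 and the kinase gene Map2k1 lowest at -0.0952 ± 0.0531 (SE, both limma adjusted p = 0.872).

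Genes tied to the Gadd45 proteins were split in direction. Of 9 measured binding partners and pathway neighbours, 4 had a higher and 5 a lower knockout mean, with a median of -0.0085. Without wild-type liver 3 the count was 6 of 9 higher and the median 0.0047, and without knockout liver 4 the median was 0.0006, so this list had no steady direction. The cell cycle inhibitor gene Cdkn1a was highest at 0.0406 ± 0.0373, and Pcna, the replication clamp, lowest at -0.142 ± 0.0670 (SE, both limma adjusted p = 0.872). Among p53 target genes 10 of 18 were higher and 8 lower, with a median of 0.0077, from the death receptor gene Fas at -0.131 ± 0.0795 to Btg2 at 0.0481 ± 0.0691 (SE, limma adjusted p = 0.872 and 0.891). The median of the p53 targets turned to -0.0032 without knockout liver 3 and to -0.0071 without knockout liver 4. None of either list passed. Cdkn1a belongs to both of these lists, and Btg2 and Plk2 also to that of immediate early genes. Ddit4 is shared with the glucocorticoid and cAMP list, and Mapk14 and Map3k4 with the MAP kinase list. Per1, Sgk1, Srf and Crem also stand in several lists, so the list counts are not independent.

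Genes of liver that answer to glucocorticoids and cAMP had a higher knockout mean in 16 of 20, with a median difference of 0.0499. Lpin1, a phosphatidate phosphatase gene, was highest at 0.325 ± 0.249 (SE, limma adjusted p = 0.872) and the metallothionein gene Mt2 lowest at -0.111 ± 0.206 (SE, limma adjusted p = 0.916). The list means differed more between mice than between genotypes. In knockout livers 2, 3 and 4 they were 0.156, 0.181 and -0.0733, and in the wild types -0.0277, 0.143, -0.0961 and 0.0537. Knockout livers 2 and 3 and wild-type liver 2 were thus high, and knockout liver 4 and wild-type livers 1 and 3 were low. Wild-type livers 1 and 3 were also the lowest for Gadd45g, whereas knockout liver 4 was above the pool for Gadd45g and below it for this list. The part of these genes' inputs in the values of Gadd45g was not tested. Without knockout liver 2 the count of higher genes was 12 of 20, and omitting knockout liver 4 gave 18 of 20.

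**Figure D5:**
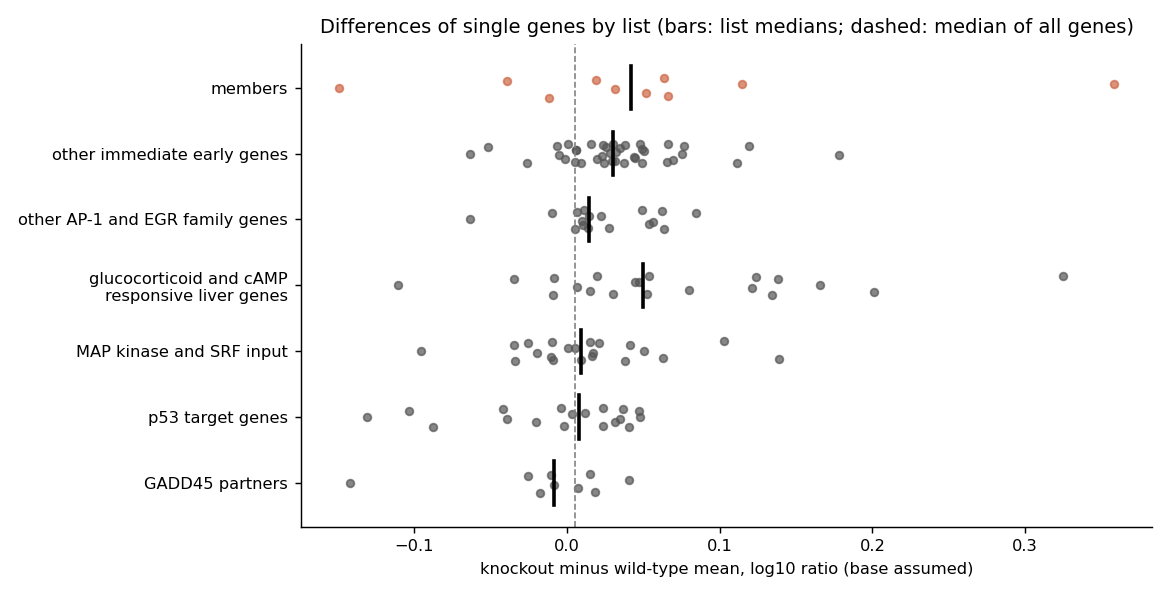
Knockout minus wild-type mean (horizontal axis, log10 ratio, base assumed) of each gene by list, 1 point per gene, with list medians as black bars and the median of all genes, 0.00543, as a dashed line. Cell type marker lists are not drawn. Among the lists drawn, the medians run from -0.0085 for Gadd45 partners to 0.0499 for glucocorticoid and cAMP responsive genes, and Gadd45g is the rightmost point; Marco, a macrophage marker that is not drawn, had 0.365.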

How the data were processed

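The authors deposited 1 log ratio per probe and array, taken here as log10, a base that is assumed. Per the labels, column-purified RNA was amplified with an aminoallyl kit, the channels carry Cy3 and Cy5, and a dye swap is mentioned. The sources used here do not give the scanner, background correction, normalization or whether columns merge both dye orientations. Column medians were 0.0017, -0.0008, 0.0075 and 0.0072 in wild-type livers 1 to 4 and 0.0139, 0.0064 and 0.0054 in knockout livers 2 to 4. The log base, how the arrays were centred and the direction remain unknown. Probes were named through the platform annotation. Current symbols were looked up for 17724 probes through Entrez numbers and for 21 through accessions, whether or not the symbol changed. Of the others, 79 kept their symbol, 50 had several and 5700 none. All 23574 probes were fitted with limma 3.58.1 in R 4.3.3 (lmFit, eBayes, two-sided, Benjamini-Hochberg over all probes, threshold 0.05). Adjusted p-values of list genes come from the same fit on probes averaged per gene. The planned permutation test of pooled correlations is not given, because the genotype difference that chose the members enters it. The fit was tested on simulated data. Members, lists and the naming rule (all members; the highest, lowest and called gene of each list; the 10 genes most like and 5 most unlike Gadd45g) were chosen with earlier results of these data known. The motifs CCAAT and TGACG were added after the sequences were seen. Protein sequences were not used here. Same-numbered mice did not vary together: the correlations of their deviations were -0.236, -0.152 and -0.0965 for numbers 2, 3 and 4, and no block was used in the comparison.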

Additional observations from a re-analysis of the deposited data

Results flagged for a closer look

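Egr1 in wild-type liver 1 read 0.0193, while the other 3 wild types lay between -0.339 and -0.298. Its gap to the nearest of them, divided by the group's range, was 0.884, above Dixon's 95% critical value for 4 samples. The 10 members were examined this way in the wild types, and chance gives such a value in about 1 of 20 groups. The knockout group of 3 livers was too small for the same rule.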

How the results depend on the processing

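In all 16 alternatives Gadd45g was higher in the knockouts. Robust moderation, the variation filter, averaging probes per gene and the ordinary test cannot change the difference of a gene with 1 probe. The replicate block gave the same differences as leaving out wild-type liver 1. Such repeats add nothing on stability. Its difference was 0.335 to 0.353 under the 3 other normalizations, 0.338 with array weights, 0.342 with a replicate block, in which wild-type liver 1 has no partner and does not count, and 0.272 to 0.423 with single mice left out. Junb, Fos, Ier2 and Ier3 kept a higher and Gadd45a and Jun a lower knockout mean wherever they were retained. Egr1, Gadd45b and Atf3 changed sign when single mice were left out, and Atf3 also with the block. The count of members higher in the knockouts was 7 or 8 and fell to 4 of 7 when the less variable probes were left out, since Fos, Junb and Ier3 did not pass that filter. Under the same filter 49.2% of 8729 genes were higher, against 56.7% of all 16462 genes. The number of probes called between genotypes was 1; it was 0 after quantile or scale normalization, with the replicate block and in the ordinary test, 4 without the less variable probes and 0 to 3 with single mice left out. Against the pool it was 0 to 1 with single mice left out. Median differences moved beyond the spread between mice to 0.00163 for the MAP kinase list after scale normalization, and to 0.0538 and 0.0209 for the AP-1 and MAP kinase lists without the less variable probes. With single mice left out they ran from 0.0104 to 0.0244 (AP-1), 0.0045 to 0.0174 (MAP kinase), 0.0221 to 0.160 (glucocorticoid and cAMP), -0.0071 to 0.0141 (p53 targets) and -0.0116 to 0.0047 (Gadd45 partners), the last 2 changing sign. The Gadd45 partners' median was also positive with array weights (0.0036). Pooled correlations with Gadd45g, given as values with no test, reversed for Gadd45b (-0.0306) and Atf3 (-0.765) without the 2 farthest livers, for Jun (-0.0371) after median centring, for Egr1 after quantile (0.0850) and scale (0.0931) normalization, and for Atf3 (-0.0267) after scale normalization. The cause of these changes was not tested. The numbers of mice and the unknown signal over background limit every value.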
